A study of Homo sapiens with 9 samples.

Results

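Interferons are secreted proteins that warn cells of infection. Type I interferons bind a receptor on the cell surface, the kinases JAK1 and TYK2 phosphorylate STAT proteins, STAT2 among them, and these join IRF9 in a complex that enters the nucleus and binds a DNA element called the interferon-stimulated response element (ISRE) near the start of many genes. The products of those genes do the antiviral work: they bind foreign RNA, block membrane fusion, hold budding virus particles, tag proteins with ISG15 and change the cell's nucleotides. Squamous epithelium of skin and esophagus is a barrier tissue in which such genes are expressed at a low level and can be induced.

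The genes described here are 44 interferon-stimulated effector genes, taken by symbol from a list of antiviral effectors in 10 role groups, of 24672 genes in the deposited tables. All 44 were found, and all 44 passed the low-count filter that left 12806 genes for testing. They were followed in 9 RNA-seq libraries of EPC2, a human esophageal epithelial cell line immortalized with telomerase reverse transcriptase. In 3 libraries (the silenced libraries) SPINK7, which encodes a serine protease inhibitor of squamous epithelium, was silenced and the cells were differentiated at an air-liquid interface (ALI). In 3 libraries (the ALI control libraries) cells with a non-silencing control were differentiated in the same way. In the last 3 (the monolayer libraries) control cells were kept undifferentiated.

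All groups grew in keratinocyte serum-free medium with 1 ng/mL epidermal growth factor, 50 ug/mL bovine pituitary extract and penicillin/streptomycin. Both ALI groups reached confluence in 0.09 mM calcium, were changed to 1.8 mM calcium on day 2, had air above them from day 7 and were collected on day 14; the harvest day of the monolayers is not given. The labels name 1 cell line, 1 silenced population and no infection or added interferon. What the lack of SPINK7 does and what the construct itself does cannot be told apart. Whether the libraries of one condition stem from separately grown cultures is not labelled, and p-values then measure only a spread that may be technical.

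The libraries held 8619938 to 14009746 counts in the silenced group, 7641960 to 9863537 in the ALI controls and 9034424 to 12989094 in the monolayers. SPINK7 stood at 20.9, 38.6 and 32.7 CPM (counts scaled to a common library size) in silenced libraries 1, 2 and 3, against 229, 261 and 225 CPM in the ALI controls, a log2 fold change of -2.95 (adjusted p = 0.00246, SE 0.30). All 9 squamous epithelial markers listed, KRT5 and TP63 among them, passed the low-count filter. On silencing 1 of the 9 fell, KRT4, a keratin of differentiated squamous cells, at 139, 107 and 161 CPM in silenced and 555, 379 and 676 CPM in ALI control libraries (log2 fold change -1.98, adjusted p = 0.0138), and its part in the results below was not tested. Among leukocyte markers 2 of 13 passed it, and PTPRC, CD3D, MS4A1, CLEC4C and LILRA4 had 0 counts in every library; the list summed to 67.1 to 95.5 CPM in the silenced libraries and 54.2 to 71.6 CPM in the ALI controls. Fibroblast markers summed to 20.7 to 45.6 CPM in the silenced libraries and 12.2 to 49.2 CPM in the ALI controls, endothelial markers to 1.76 to 2.80 CPM in the silenced libraries and 3.53 to 10.05 CPM in the ALI controls, and melanocyte markers to 2.06 to 4.05 CPM in the silenced libraries and 3.48 to 5.30 CPM in the ALI controls. In the monolayers fibroblast markers summed to 50.1 to 186 CPM, above every ALI library, and leukocyte markers to 16.6 to 29.95 CPM. Endothelial markers summed there to 0.405 to 0.745 CPM and melanocyte markers to 1.49 to 2.76 CPM. The part of these differences in the comparisons with the monolayers was not tested. The 2 ALI libraries numbered 2 stood apart from the other 4 ALI libraries: in them the proliferation gene MKI67 was at 0.893 CPM (silenced) and 0.757 CPM (control), against 74.8 to 106 CPM in the other silenced libraries and 39.6 to 42.1 CPM in the other controls. The 8 cell cycle markers listed summed to 70.1 to 453 CPM in the silenced libraries, 121 to 233 CPM in the ALI controls and 90.5 to 126 CPM in the monolayers. These ranges include the libraries numbered 2, so as a set the markers were not as low there as MKI67. The edgeR counts of called genes below, over the 44 and over the other lists, are also given without both ALI libraries numbered 2. Library numbers are those of the GEO labels; the names of the deposited tables number some ALI libraries otherwise, and every value given for a numbered library rests on the labels.

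The DNA near the starts of these genes is shown first, because it carries the letters that the complex of STAT proteins with IRF9 and its relatives are known to bind. The windows are from RefSeq on GRCh38.p14, 300 bases each, with 250 before and 50 after a transcription start. Matching by symbol found 50 windows for 36 of the 44 genes; IFIT2, OASL, MX2, OAS2, LAMP3, USP18, TRIM22 and IFITM2 had none. The ISRE core searched was GAAA, any pair of bases, then GAAA again, on either strand, and it was present for 27 of the 36 genes (75%), against 4.38% of all 27305 genes with a window. A second element, GAS, which STAT dimers are known to bind, was searched as TTCNNNGAA, in which N is any base and which reads the same on both strands. It was present for 11 of the 36 genes (30.6%), against 9.38% of all genes. A match is a run of letters and not a measured binding site.

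The stretches below hold the ISRE cores of the 8 genes that passed the silencing test and have one, and of a few neighbours and relatives for comparison. Each is printed 5′ to 3′ along the gene's own strand with the core letters in capitals; overlapping cores run together, and a core on the opposite strand reads TTTC, any pair of bases, then TTTC. Coordinates are GRCh38.p14.
BST2 (chr19:17405735-17405770, minus strand): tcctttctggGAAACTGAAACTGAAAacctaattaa
IFI6 (chr1:27672266-27672358, minus strand): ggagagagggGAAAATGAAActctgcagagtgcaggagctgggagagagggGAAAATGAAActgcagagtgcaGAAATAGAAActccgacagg
IFI27 (chr14:94110618-94110660, plus strand): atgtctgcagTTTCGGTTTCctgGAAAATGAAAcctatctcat
IFITM1 (chr11:313990-314043, plus strand): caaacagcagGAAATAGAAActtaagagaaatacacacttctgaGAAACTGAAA
IFITM3 (chr11:320876-320922, minus strand): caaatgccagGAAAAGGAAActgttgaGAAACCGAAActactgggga
DDX60 (chr4:168318786-168318850, minus strand): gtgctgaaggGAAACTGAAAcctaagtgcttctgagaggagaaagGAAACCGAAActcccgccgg
DDX60L (chr4:168480523-168480582, minus strand): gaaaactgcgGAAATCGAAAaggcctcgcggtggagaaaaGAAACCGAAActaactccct
IFIT5 (chr10:89414513-89414573, plus strand): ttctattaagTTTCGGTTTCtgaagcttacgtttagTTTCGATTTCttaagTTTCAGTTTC
PARP14 (chr3:122680800-122680829, plus strand): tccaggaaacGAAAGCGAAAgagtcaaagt
ISG15 (chr1:1013374-1013409, plus strand): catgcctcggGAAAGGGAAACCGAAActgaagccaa
IFIT1 (chr10:89392497-89392539, plus strand): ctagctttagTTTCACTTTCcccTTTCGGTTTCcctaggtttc
HERC5 (chr4:88456984-88457064, plus strand): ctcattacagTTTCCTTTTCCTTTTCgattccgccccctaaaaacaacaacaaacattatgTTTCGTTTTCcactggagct
PARP9 (chr3:122564322-122564351, minus strand): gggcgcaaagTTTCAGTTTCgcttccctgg
DTX3L (chr3:122564322-122564341, plus strand): ccagggaagcGAAACTGAAA

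In BST2 and ISG15 2 cores overlap in 1 run, and in HERC5 2 of its 3 cores do. IFI6 and IFIT5 held 3 cores each. The cores of IFI27 lie on opposite strands. PARP9 and DTX3L are transcribed away from each other, and both stretches show the same core, at chr3:122564332-122564341, read from its 2 strands. Across all windows of the 27 genes the 52 matches lay between 196 bases upstream and 11 bases after the start, with a median of 79.5 bases upstream, counted at the edge of a match farthest upstream. A core that falls in several windows is counted in each, as for IFI27, IFI44, PLSCR1 and the core of PARP9 and DTX3L. The 52 are therefore not all separate sites. The 1 match that began after the start was in MX1.

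**Figure D1:**
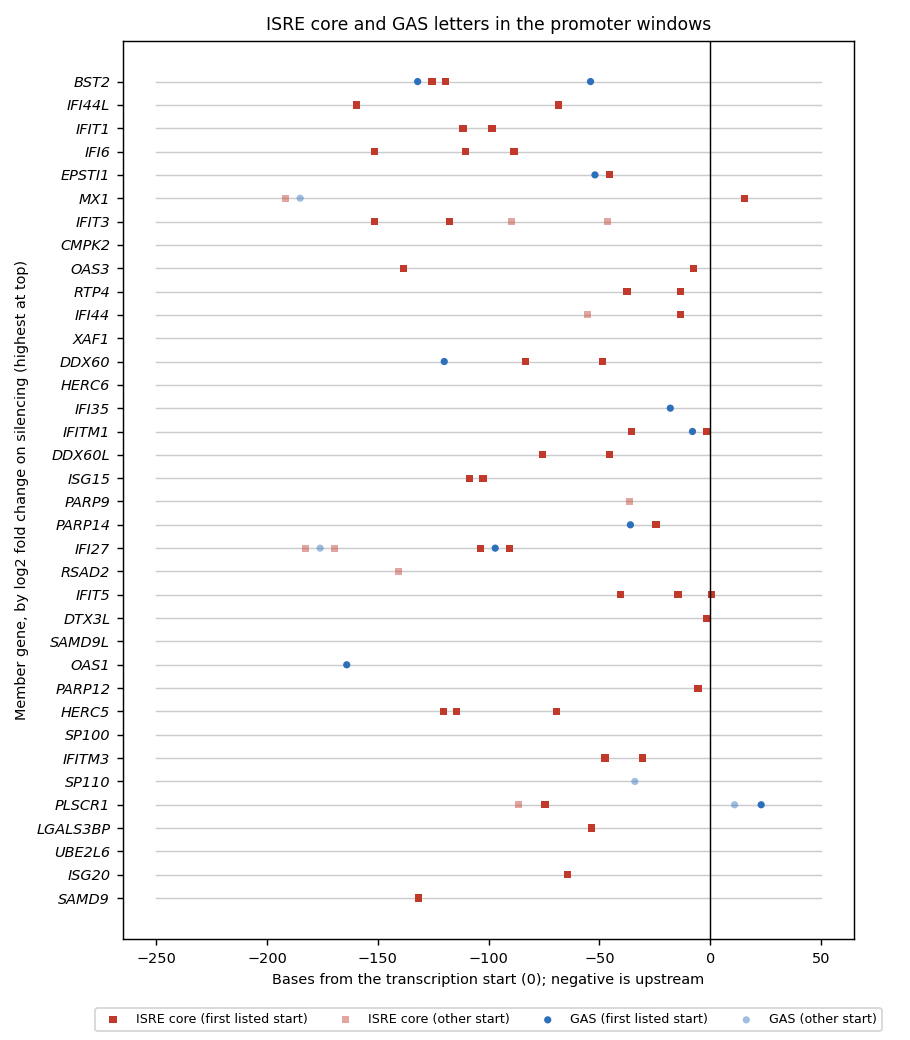
Position of each match in the promoter windows of the 36 genes with a window, in bases from the transcription start (0), with genes ordered by their log2 fold change on silencing. Squares are ISRE cores and circles are GAS; pale symbols belong to a further annotated start. Every ISRE core match of the 27 genes begins upstream of the start except 1 of MX1, which begins 11 bases after it.

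The first question was how the 44 genes stand in SPINK7-silenced ALI cultures. All 44 had a positive log2 fold change, from 0.25 (SAMD9) to 4.34 (BST2), with a median of 1.92 against 0.01 over all genes tested. By edgeR's quasi-likelihood test 10 of the 44 rose and none fell, where 0.226% of all genes tested rose and 0.703% fell. The 10 were BST2, IFI6, IFI27, DDX60, IFITM3, IFITM1, XAF1, IFIT5, PARP14 and HERC6. At an unadjusted p under 0.05 there were 41, all with a positive log2 fold change, where 4.09% of all genes tested had both. DESeq2's test called 38 higher and 0 lower, where it called 1.09% of all genes tested higher and 2.15% lower.

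Library by library, 38 of the 44 had all 3 silenced libraries above all 3 ALI controls, against 5.76% of all genes tested, and none had all 3 below, against 6.34%. The other 6 were MX2, IFIT3, HERC5, SAMD9, SP100 and SP110. The count of 10 rested on single libraries: leaving out silenced library 2 gave 36, where 0.71% of all genes tested then rose, and leaving out both ALI libraries numbered 2 gave 40, where 2.17% did. It was 2 without silenced library 1, without silenced library 3 or without control library 3, and 3 without control library 1. Without monolayer library 2 it was 6, and without monolayer library 3 it was 5. A fit on only the 2 ALI groups, with no monolayers, called 2, BST2 and IFI6. In that fit 5 of 12292 genes tested rose. Calls of higher genes over all genes tested fell as well, from 29 in the fit of all 9 libraries. They numbered 3 without silenced library 1, 5 without silenced library 3, 6 without control library 3 and 8 without control library 1. Without monolayer library 2 they numbered 11, and without monolayer library 3 they numbered 9. The libraries are bulk RNA, so a change in the number of cells that express a gene and a change in RNA per cell cannot be told apart.

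**Figure D2:**
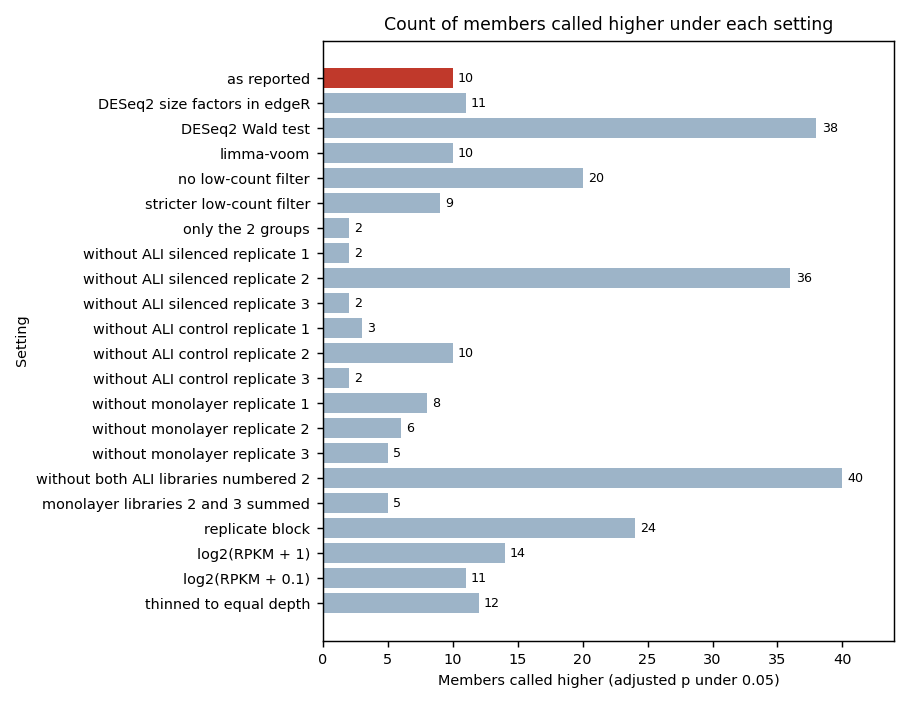
Number of the 44 genes called higher in silenced against ALI control libraries (adjusted p under 0.05) as reported, in red, and under each of 21 alternative settings. The bars run from 2 to 40, with 10 as reported.

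**Figure D3:**
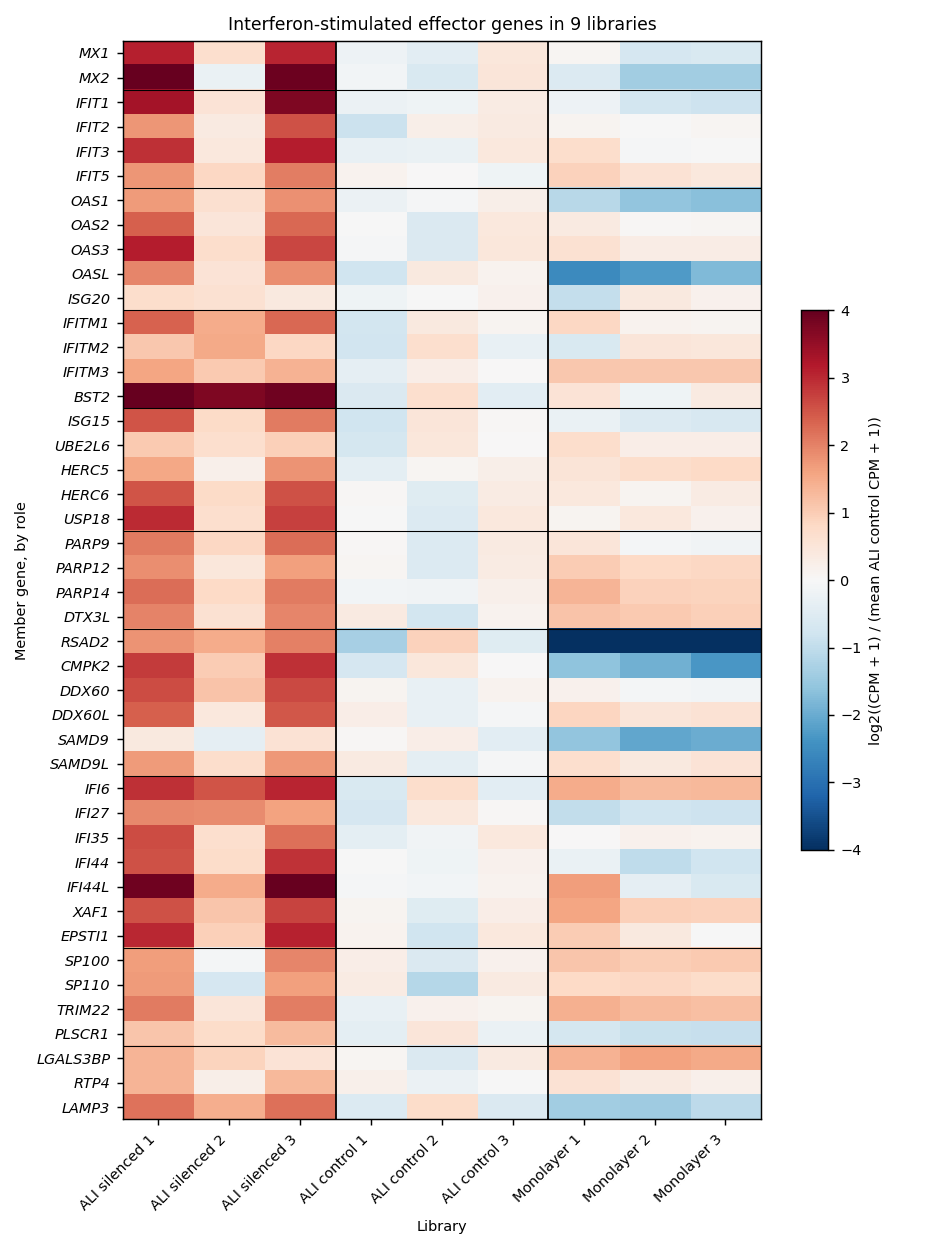
Level of each of the 44 genes in each of the 9 libraries as log2((CPM + 1) / (mean ALI control CPM + 1)), with genes in their role groups; columns are silenced, ALI control and monolayer libraries 1 to 3, and colours end at -4 and 4. Silenced libraries 1 and 3 are red throughout, silenced library 2 is paler for most genes, and RSAD2 is the darkest blue in the monolayers.

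Restriction factors of membranes held the gene with the largest rise, BST2, while the group's median of 1.75 was below the 1.92 of all 44. Of the 4 genes 3 passed by edgeR and by DESeq2, or 4 by edgeR without both ALI libraries numbered 2. BST2 (tetherin; chr19:17513755-17516384, minus strand, hg19) tethers budding virus particles to the cell surface. It was at 55.4, 45.9 and 50.2 CPM in the silenced libraries, against 1.34, 4.54 and 1.59 CPM in the ALI controls. The 3 silenced libraries were close to each other and all lay more than 10-fold above the highest control. The means were 50.5 ± 4.76 CPM in silenced and 2.49 ± 1.78 CPM in control libraries (SD, n = 3 each), a log2 fold change of 4.34 (adjusted p = 0.00246, SE 0.44), with a 95% interval of 3.36 to 5.33. BST2 passed under all 21 alternatives (highest adjusted p = 0.0199). The gene had 1690 counts over the silenced and 61 over the ALI control libraries.

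The IFITM proteins sit in membranes and block fusion of virus with the cell. IFITM1 (chr11:313991-315272, plus strand) was at 156, 84.7 and 150.2 CPM in silenced and 17.5, 39.1 and 32.5 CPM in ALI control libraries, with no overlap. Its log2 fold change was 2.13 (adjusted p = 0.0251, SE 0.36), and it was no longer called without silenced library 1 or 3 or control library 1 or 3 (then adjusted p from 0.0911 to 0.116). IFITM3 (chr11:319673-320914, minus strand) was at 281, 195 and 248 CPM in silenced and 72.6, 114 and 94.4 CPM in ALI control libraries, also with no overlap, and had a log2 fold change of 1.37 (adjusted p = 0.0224, SE 0.23); it was no longer called without silenced library 1 or 3, control library 1 or 3 or monolayer library 3 (then adjusted p from 0.0505 to 0.11). IFITM2 was at 40.3, 54.5 and 33.8 CPM in silenced and 10.3, 30.1 and 14.8 CPM in ALI control libraries, where silenced library 2 was the highest of the 6 and the groups did not overlap. It did not pass, at 1.22 (adjusted p = 0.308, SE 0.43). IFITM1, IFITM2 and IFITM3 are close copies that lie within chr11:308107-320914, so reads that match more than 1 of them could have been split or lost in the authors' counting.

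Small interferon-inducible membrane proteins and their group held 3 more rises among 7 genes. DESeq2 called all 7 higher, and edgeR called 6 without both ALI libraries numbered 2. IFI6 (chr1:27992572-27998724, minus strand), a protein of the endoplasmic reticulum and mitochondria, was at 448, 338 and 491 CPM in silenced and 37.6, 94.97 and 43.04 CPM in ALI control libraries. Even the lowest silenced library was more than 3-fold above the highest control. The log2 fold change was 2.86 (adjusted p = 0.00593, SE 0.36), and IFI6 passed under all 21 alternatives (highest adjusted p = 0.0365). IFI27 (chr14:94577079-94583033, plus strand), its relative in mitochondria, was at 453, 439 and 366 CPM in silenced and 74.7, 158 and 123 CPM in ALI control libraries. Here silenced library 2 was level with the other silenced libraries, and the groups did not overlap. IFI27 had a log2 fold change of 1.82 (adjusted p = 0.0128, SE 0.27) and was no longer called without silenced library 1 or 3 or control library 3 (then adjusted p from 0.0526 to 0.0712). XAF1 (chr17:6659156-6678964, plus strand), which opposes the apoptosis inhibitor XIAP, was at 156, 57.6 and 177 CPM in silenced and 28.4, 18.4 and 31.6 CPM in ALI control libraries and had a log2 fold change of 2.31 (adjusted p = 0.0329, SE 0.41). The groups did not overlap, and XAF1 was no longer called without silenced library 1 or 3, any 1 control library or monolayer library 2 or 3 (then adjusted p from 0.0611 to 0.138).

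The other 4 genes of that group did not pass, and in each of them the groups did not overlap while silenced library 2 was far below the other silenced libraries. IFI44L was at 217, 39.98 and 264 CPM in silenced and 13.3, 12.5 and 15.2 CPM in ALI control libraries. Its log2 fold change of 3.66 (adjusted p = 0.0641, SE 0.78) was the second highest of the 44, with a 95% interval of 1.92 to 5.41. IFI44, its neighbour on chromosome 1, stood at 214, 59.7 and 270.3 CPM in silenced and 34.8, 31.4 and 40.5 CPM in ALI control libraries, and had a log2 fold change of 2.35 (adjusted p = 0.0532, SE 0.47). EPSTI1 had a log2 fold change of 2.77 (adjusted p = 0.0632, SE 0.59). IFI35, a partner of the interferon-inducible protein NMI, had a log2 fold change of 2.16 (adjusted p = 0.0607, SE 0.45).

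**Figure D4:**
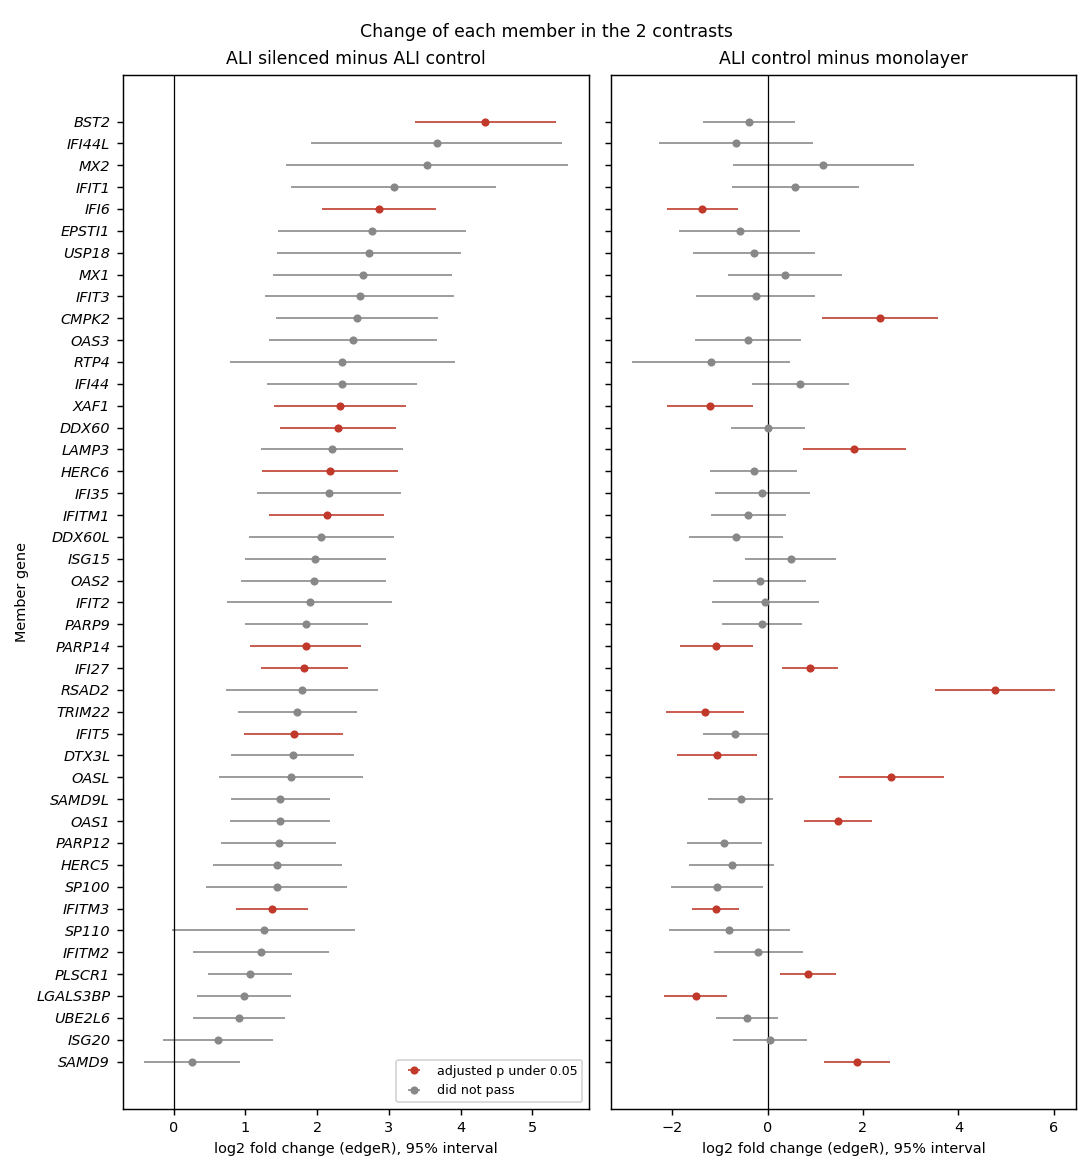
log2 fold change of each of the 44 genes with its 95% interval, silenced minus ALI control (left) and ALI control minus monolayer (right), in the order of the left panel; red marks an adjusted p under 0.05. All points of the left panel lie above 0, and those of the right panel lie on both sides of it.

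The myxovirus resistance GTPases, which form rings around viral nucleocapsids, showed large means and a wide spread. MX1 was at 895, 164 and 853 CPM in silenced and 89.9, 76.6 and 142 CPM in ALI control libraries, with no overlap, though silenced library 2 lay just above control library 3. The log2 fold change of 2.63 (adjusted p = 0.0641, SE 0.56) did not pass, though the unadjusted p of both GTPases was under 0.05 and DESeq2 called both higher, as edgeR did without both ALI libraries numbered 2. MX2 was at 205, 9.55 and 189.9 CPM in silenced and 10.7, 7.32 and 16.8 CPM in ALI control libraries. Silenced library 2 lay among the controls, so the groups overlapped, and the change of 3.53 (adjusted p = 0.117, SE 0.88) did not pass.

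Of the IFIT proteins, which bind RNA ends that lack the marks of the cell's own RNA, IFIT5 rose, while DESeq2 called all 4 higher, as edgeR did without both ALI libraries numbered 2. IFIT5 (chr10:91174325-91180759, plus strand) was at 84.3, 43.3 and 102 CPM in silenced and 26.7, 24.1 and 21.4 CPM in ALI control libraries, with no overlap, and had a log2 fold change of 1.67 (adjusted p = 0.0382, SE 0.31). It was no longer called without silenced library 1 or 3, control library 1 or 3 or any 1 monolayer library (then adjusted p from 0.0586 to 0.149). IFIT1, its neighbour and the most abundant of the 4 per length, was at 614, 87.04 and 802 CPM in silenced and 50.5, 53.5 and 75.5 CPM in ALI control libraries. Silenced library 2 was the lowest of the silenced libraries and still above every control. The change of IFIT1 was 3.06 (adjusted p = 0.0607, SE 0.64). IFIT3 had a log2 fold change of 2.59 (adjusted p = 0.081, SE 0.59), with silenced library 2 at 55.1 CPM below control library 3 at 55.9 CPM, and IFIT2 had a log2 fold change of 1.89 (adjusted p = 0.152, SE 0.51) with no overlap.

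No gene of the oligoadenylate synthetase family passed. These enzymes sense double-stranded RNA and make the messenger that activates RNase L, except OASL, which lacks that activity. OAS2, the most abundant per length, was at 594, 157 and 552 CPM in silenced and 111, 74.8 and 151 CPM in ALI control libraries, a log2 fold change of 1.95 (adjusted p = 0.0881, SE 0.45). OAS3 had the largest change of the family, 2.50 (adjusted p = 0.0608, SE 0.53), at 510.3, 93.7 and 373 CPM in silenced and 55.7, 37.8 and 79.1 CPM in ALI control libraries. The log2 fold change was 1.48 (adjusted p = 0.0632, SE 0.32) for OAS1 and 1.63 (adjusted p = 0.158, SE 0.45) for OASL. At an unadjusted p under 0.05 there were 4 of the 5, DESeq2 called 4 higher, and edgeR called 4 without both ALI libraries numbered 2. In OAS1, OAS2, OAS3 and OASL the silenced libraries lay above all controls. ISG20, an exoribonuclease, was at 15.7, 14.6 and 12.5 CPM in silenced and 8.17, 9.08 and 10.6 CPM in ALI control libraries, without overlap, and its change of 0.62 (adjusted p = 0.645, SE 0.35) was the second smallest of the 44.

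In the ISG15 pathway the modifier, its enzymes and the enzyme that removes it had positive changes, and 1 of 5 passed. DESeq2 called 4 higher, and edgeR called 5 without both ALI libraries numbered 2. ISG15 is a ubiquitin-like protein that is joined to other proteins. It was at 272, 80.6 and 203 CPM in silenced and 26.9, 66.1 and 48.4 CPM in ALI control libraries, where silenced library 2 was above the highest control by a small margin, and had a log2 fold change of 1.97 (adjusted p = 0.0723, SE 0.44). HERC6 (chr4:89299891-89364249, plus strand), a relative of the human ISG15 ligase HERC5, was at 183, 54.00 and 189.5 CPM in silenced and 32.4, 22.3 and 39.2 CPM in ALI control libraries, with no overlap, and had a log2 fold change of 2.18 (adjusted p = 0.0479, SE 0.43). HERC6 was nearest to the threshold of the 10 and was no longer called without silenced library 1 or 3, any 1 control library or any 1 monolayer library (then adjusted p from 0.0841 to 0.188). HERC5 itself was at 20.9, 7.56 and 24.6 CPM in silenced and 4.69, 6.81 and 7.82 CPM in ALI control libraries. Silenced library 2 was below control library 3, so the groups overlapped, and HERC5 had a log2 fold change of 1.45 (adjusted p = 0.167, SE 0.40). USP18, which removes ISG15 and dampens the type I interferon receptor, was at 35.4, 6.25 and 29.6 CPM in silenced and 3.48, 2.14 and 5.08 CPM in ALI control libraries, a log2 fold change of 2.72 (adjusted p = 0.063, SE 0.58). UBE2L6, the conjugating enzyme, had a log2 fold change of 0.91 (adjusted p = 0.246, SE 0.29), the smallest change of the 5.

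Among the 4 ADP-ribosylation genes PARP14 rose, while DESeq2 called all 4 higher, as edgeR did without both ALI libraries numbered 2. PARP14 (chr3:122399672-122449687, plus strand), a mono-ADP-ribosyltransferase, was at 308, 111 and 273 CPM in silenced and 60.01, 58.9 and 74.1 CPM in ALI control libraries, with no overlap, and had a log2 fold change of 1.84 (adjusted p = 0.0418, SE 0.35). It was no longer called without silenced library 1 or 3, any 1 control library or any 1 monolayer library (then adjusted p from 0.0653 to 0.168). PARP9 and DTX3L encode partners in 1 complex and share the ISRE core that is printed above, which spans the annotated start of DTX3L. PARP9 was at 306, 128 and 337 CPM in silenced and 73.8, 47.9 and 91.8 CPM in ALI control libraries, and DTX3L at 195, 73.6 and 188 CPM in silenced and 62.7, 28.9 and 53.1 CPM in ALI control libraries. In both, silenced libraries 1 and 3 were near each other, library 2 was lower, and no silenced library overlapped the controls. Their changes were 1.85 (adjusted p = 0.0588, SE 0.38) for PARP9 and 1.66 (adjusted p = 0.0881, SE 0.38) for DTX3L. PARP12 had a log2 fold change of 1.46 (adjusted p = 0.111, SE 0.36).

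The group of nucleotide enzymes, helicases and SAMD9 proteins held 1 rise among 6 genes. DESeq2 called 5 higher, and edgeR called 5 without both ALI libraries numbered 2. DDX60 (chr4:169137442-169239958, minus strand), a helicase-like protein that promotes RNA sensing, was at 293, 105 and 299 CPM in silenced and 51.6, 38.2 and 52.8 CPM in ALI control libraries, with no overlap, and had a log2 fold change of 2.29 (adjusted p = 0.0192, SE 0.36). DDX60 was no longer called without silenced library 1 or 3 or control library 1 or 3 (then adjusted p from 0.078 to 0.0935). Its neighbour DDX60L had a log2 fold change of 2.06 (adjusted p = 0.0692, SE 0.45). CMPK2, a mitochondrial nucleotide kinase, was at 78.3, 22.4 and 85.8 CPM in silenced and 6.295, 14.6 and 10.6 CPM in ALI control libraries, a log2 fold change of 2.56 (adjusted p = 0.0516, SE 0.51). RSAD2 (viperin), the neighbour of CMPK2, makes a chain-ending nucleotide. It was at 211, 169 and 248 CPM in silenced and 23.4, 115 and 43.4 CPM in ALI control libraries. Control library 2 was the highest control and lay closest to the silenced libraries, the groups did not overlap, and RSAD2 had a log2 fold change of 1.79 (adjusted p = 0.141, SE 0.48). SAMD9, a restriction factor of poxviruses, was at 659.9, 385 and 738 CPM in silenced and 519, 605 and 373 CPM in ALI control libraries. The groups overlapped, and the change of 0.25 (adjusted p = 0.816, SE 0.30) was the smallest of the 44, with a 95% interval of -0.41 to 0.92. Its neighbour and relative SAMD9L was at 81.8, 40.5 and 84.1 CPM in silenced and 31.6, 18.4 and 23.7 CPM in ALI control libraries, without overlap, a log2 fold change of 1.48 (adjusted p = 0.0601, SE 0.31).

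None of the nuclear body, TRIM and scramblase genes or of the secreted, chaperone and lysosomal genes passed, though 3 genes of each set had an unadjusted p under 0.05 and DESeq2 called 3 of the first and 2 of the second higher. Without both ALI libraries numbered 2 edgeR called 4 of the first and 2 of the second. TRIM22, a ubiquitin ligase of the TRIM family, had the largest change of the first set, 1.72 (adjusted p = 0.0651, SE 0.37), at 235, 77.2 and 231 CPM in silenced and 44.5, 61.3 and 58.6 CPM in ALI control libraries. PLSCR1, a phospholipid scramblase, was at 166, 126 and 185 CPM in silenced and 58.1, 107 and 63.4 CPM in ALI control libraries and had a log2 fold change of 1.06 (adjusted p = 0.114, SE 0.26). Neither gene's groups overlapped. The nuclear body genes SP100 and SP110 overlapped: SP110 was at 81.3, 14.8 and 77.1 CPM in silenced and 30.5, 10.3 and 31.5 CPM in ALI control libraries, and silenced library 2 and control library 2 were both low. The log2 fold change was 1.43 (adjusted p = 0.222, SE 0.44) for SP100 and 1.25 (adjusted p = 0.554, SE 0.57) for SP110.

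Of the last set, LAMP3, a lysosomal membrane protein, was at 24.6, 14.4 and 25.2 CPM in silenced and 2.81, 8.32 and 2.75 CPM in ALI control libraries, a log2 fold change of 2.21 (adjusted p = 0.0532, SE 0.44). LGALS3BP, a secreted glycoprotein, was at 398, 289 and 226 CPM in silenced and 161, 102 and 199.5 CPM in ALI control libraries, a log2 fold change of 0.98 (adjusted p = 0.202, SE 0.29). RTP4, a chaperone of cell-surface receptors, had the fewest counts of the 44, 87 over all 9 libraries. It was at 2.43, 0.5496 and 2.22 CPM in silenced and 0.536, 0.126 and 0.317 CPM in ALI control libraries, and had a log2 fold change of 2.35 (adjusted p = 0.208, SE 0.71). In these 3 genes every silenced library was above every ALI control.

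Levels can be set against each other between genes by the authors' RPKM, which divides by transcript length. On that scale IFI27 was the most abundant of the 44 in the silenced libraries, with a mean of 557 RPKM, against 143 RPKM in the ALI controls and 88.8 RPKM in the monolayers. IFI6 followed with 434 RPKM in silenced, 53.5 in ALI control and 161 in monolayer libraries, and IFITM3 with 313 RPKM in silenced, 111 in ALI control and 269 in monolayer libraries. ISG15 (239 RPKM), IFIT1 (231 RPKM) and MX1 (194 RPKM) came next of the genes given here in the silenced libraries.

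Silenced library 2 carried these genes at a lower level than its 2 companions. It was the lowest of the 3 silenced libraries for 40 of the 44, where the same held for 39% of all genes tested. All 44 lay above all 3 controls in silenced library 1 and in silenced library 3, against 32.6% and 20.8% of all genes tested, and 38 did in library 2, against 19.8%. The 44 summed to 9871 CPM in silenced library 1, 4034 CPM in library 2 and 9883 CPM in library 3, against 2136, 2394 and 2449 CPM in the ALI controls. The median fold over the ALI control mean was 5.005 for the mean of silenced libraries 1 and 3 and 1.68 for library 2.

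The genes differed in how low library 2 stood. As a percentage of the mean of silenced libraries 1 and 3, library 2 ran from 4.83% (MX2) to 147% (IFITM2), with a median of 35.1%. It was under 50% for 31 genes, MX1 (18.7%), IFIT1 (12.3%) and IFI44L (16.6%) among them, and from 50 to 100% for 10. BST2 (86.9%), IFI6 (71.97%), IFITM3 (73.6%), RSAD2 (73.6%) and LGALS3BP (92.4%) were among those 10. ISG20 (103%), IFI27 (107%) and IFITM2 were above 100%. BST2, IFI6, IFI27, IFITM3 and IFITM1 (55.3%), at over 50% each, were 5 of the 10 genes that passed the silencing test. Library 2 is part of that test, so its level and the calls are not independent.

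Control library 2 was below the mean of control libraries 1 and 3 for 26 of the 44 and above it for 18. It was farthest above for RSAD2, BST2, LAMP3, IFITM2 and IFI6, at 343%, 310.4%, 299%, 240.02% and 235% of that mean. Set against control library 2 alone, silenced library 2 was higher for 43 of 44, all but SAMD9, with a median fold of 1.84. BST2 was 10.1-fold higher in silenced library 2 than in control library 2. The part of proliferation or of any other property of the libraries numbered 2 in these values was not tested.

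**Figure D5:**
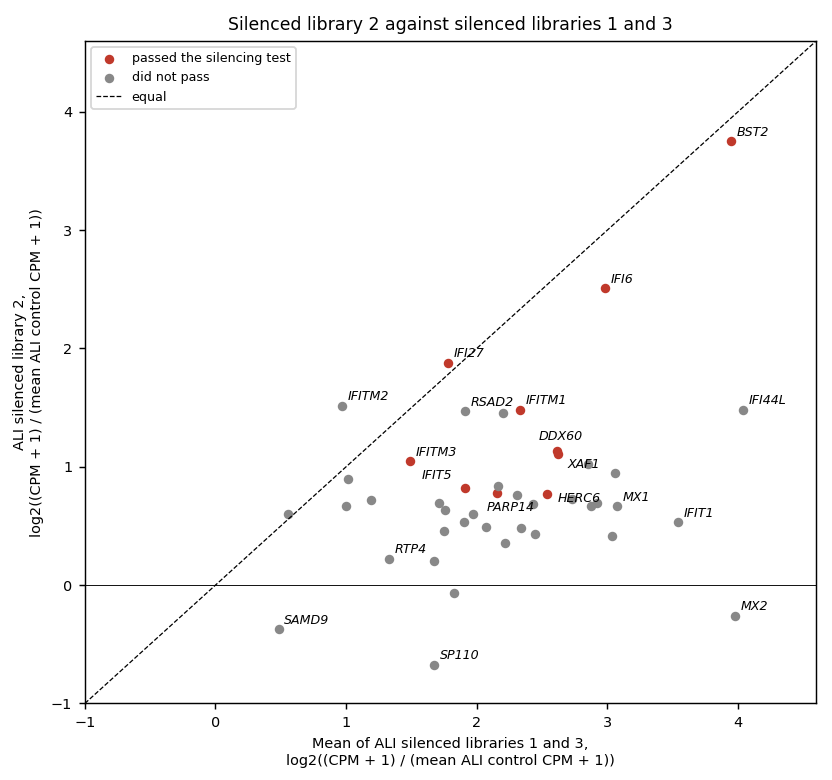
Each of the 44 genes by its level in silenced library 2 (vertical) and the mean of silenced libraries 1 and 3 (horizontal), both as log2((CPM + 1) / (mean ALI control CPM + 1)); the dashed line is equality and red marks genes that passed the silencing test. Most genes lie below the line, BST2, IFI6 and IFI27 lie near it, and IFITM2 lies above it.

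The second question was how the genes stand in differentiated control cells against undifferentiated ones. Here the 44 moved both ways: 8 were higher in the ALI controls and 7 lower by the same test, where 20.3% of all genes tested were higher and 20.2% lower. That is 18.2% and 15.9% of the 44, close to the share over all genes. Without both ALI libraries numbered 2 the counts were 11 higher and 15 lower, where 24.9% of all genes tested were higher and 25.7% lower. The higher count was 5 without monolayer library 1 or monolayer library 2. The lower count was 12 without silenced library 2 and 4 without control library 1 or any 1 monolayer library. Over all genes tested the higher calls fell from 2601 to 1965 without monolayer library 1 and to 1738 without monolayer library 2. The lower calls went from 2589 to 2699 without silenced library 2 and to 2168 without control library 1. Without 1 monolayer library they were 1842 to 1988. The median of the 44 was -0.29, against 0.03 over all genes tested. All 3 ALI controls lay above all 3 monolayers for 9 genes (27.3% of all genes tested) and below them for 14 (29.9%).

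RSAD2 had the largest change. It was at 23.4, 115 and 43.4 CPM in ALI control and 1.91, 2.73 and 2.02 CPM in monolayer libraries, and every ALI control was far above every monolayer, with control library 2 the highest. The log2 fold change was 4.77 (adjusted p = 0.00016, SE 0.57). OASL was at 7.63, 18.9 and 15.8 CPM in ALI control and 1.56, 2.12 and 3.41 CPM in monolayer libraries, a log2 fold change of 2.60 (adjusted p = 0.00261, SE 0.50). CMPK2, the neighbour of RSAD2, was at 6.295, 14.6 and 10.6 CPM in ALI control and 2.76, 2.02 and 1.28 CPM in monolayer libraries, a log2 fold change of 2.35 (adjusted p = 0.00729, SE 0.55). In these 3 genes the groups did not overlap, and each kept its call without any 1 library.

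The other 5 that were higher were SAMD9, LAMP3, OAS1, IFI27 and PLSCR1. SAMD9 was at 519, 605 and 373 CPM in ALI control and 168, 118 and 124 CPM in monolayer libraries, a log2 fold change of 1.87 (adjusted p = 0.00119, SE 0.31). OAS1 had a log2 fold change of 1.48 (adjusted p = 0.00497, SE 0.32). In these 2 genes every ALI control was above every monolayer, and both kept their calls without any 1 library. LAMP3 had a log2 fold change of 1.81 (adjusted p = 0.0144, SE 0.49) and was no longer called without monolayer library 1 or 2 (then adjusted p from 0.0514 to 0.0529). IFI27 had a log2 fold change of 0.89 (adjusted p = 0.0233, SE 0.26) and was no longer called without any 1 monolayer library (then adjusted p from 0.0631 to 0.0757). PLSCR1 had a log2 fold change of 0.84 (adjusted p = 0.0273, SE 0.26) and was no longer called without control library 2 or any 1 monolayer library (then adjusted p from 0.0503 to 0.0875).

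The lower genes were LGALS3BP, IFI6, TRIM22, XAF1, IFITM3, PARP14 and DTX3L. LGALS3BP was at 161, 102 and 199.5 CPM in ALI control and 405, 469.8 and 446 CPM in monolayer libraries, a log2 fold change of -1.51 (adjusted p = 0.00295, SE 0.30). IFI6 was at 37.6, 94.97 and 43.04 CPM in ALI control and 165, 143 and 146 CPM in monolayer libraries, a log2 fold change of -1.37 (adjusted p = 0.00985, SE 0.34). TRIM22 was at 44.5, 61.3 and 58.6 CPM in ALI control and 150.0, 132 and 129 CPM in monolayer libraries, a log2 fold change of -1.32 (adjusted p = 0.017, SE 0.37). In these 3 genes every ALI control was below every monolayer. TRIM22 was no longer called without control library 1 (then adjusted p = 0.0618), while LGALS3BP and IFI6 kept their calls without any 1 library. IFITM3 had a log2 fold change of -1.09 (adjusted p = 0.00379, SE 0.22) and kept its call without any 1 library. XAF1 had a log2 fold change of -1.21 (adjusted p = 0.0356, SE 0.40) and was no longer called without control library 1 or 2 or any 1 monolayer library (then adjusted p from 0.0567 to 0.127). PARP14 had a log2 fold change of -1.08 (adjusted p = 0.0295, SE 0.34) and was no longer called without control library 1 or 2 or any 1 monolayer library (then adjusted p from 0.0526 to 0.0997). DTX3L had a log2 fold change of -1.06 (adjusted p = 0.047, SE 0.38) and was no longer called without silenced library 3, control library 2 or 3 or any 1 monolayer library (then adjusted p from 0.063 to 0.112).

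Neighbouring genes did not always share these values. Within 200 kb of each other on hg19, 27 of the 44 lay in 11 clusters. On chromosome 7 SAMD9 had a log2 fold change on differentiation of 1.87 and SAMD9L of -0.57 (adjusted p = 0.162), and on silencing SAMD9 had 0.25, the smallest of the 44, and SAMD9L 1.48. On chromosome 12 OAS1 had 1.48 on differentiation, against -0.42 for OAS3 (adjusted p = 0.524) and -0.17 for OAS2 (adjusted p = 0.784). The differences between neighbours were not tested. On chromosome 2 CMPK2 and RSAD2 both rose on differentiation.

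Silenced ALI cells were also set directly against the monolayers, a comparison in which silencing and differentiation differ at once. Of the 44, 30 were higher and none lower, where 15.8% of all genes tested were higher and 15.9% lower, and the median was 1.87 against 0.04. Without both ALI libraries numbered 2, 41 were higher, where 26.1% of all genes tested were. The unadjusted p was under 0.05 for 33 (43.3% of all genes tested), and DESeq2 called 31 higher (19.1%) and 0 lower (18.1%). The silenced libraries lay wholly above the monolayers for 27 genes (28% of all genes tested) and wholly below for 1, LGALS3BP (27.7%). This comparison shares its libraries with the other 2 comparisons.

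The nucleotide enzymes RSAD2 and CMPK2 stood farthest from the monolayers. RSAD2 was at 211, 169 and 248 CPM in silenced and 1.91, 2.73 and 2.02 CPM in monolayer libraries, a log2 fold change of 6.56 (adjusted p = 4.4e-05, SE 0.61). The log2 fold change was 4.91 (adjusted p = 0.000187, SE 0.58) for CMPK2, 4.69 (adjusted p = 0.00402, SE 0.93) for MX2, 4.23 (adjusted p = 0.000224, SE 0.51) for OASL, 4.02 (adjusted p = 0.000238, SE 0.49) for LAMP3 and 3.94 (adjusted p = 0.000111, SE 0.42) for BST2. At the other end IFITM3 was at 281, 195 and 248 CPM in silenced and 199, 199 and 201 CPM in monolayer libraries, a log2 fold change of 0.27 (adjusted p = 0.371, SE 0.22): the groups overlapped. LGALS3BP was the only 1 of the 44 with a negative value, -0.53 (adjusted p = 0.187, SE 0.29).

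In the order of the 3 group means, silenced came first for 43 genes and monolayer for LGALS3BP. Silenced, then monolayer, then ALI control was the order for 28 genes, and silenced, then ALI control, then monolayer for 15. IFI6 is of the first kind, at 426 ± 78.97 CPM in silenced, 58.5 ± 31.7 CPM in ALI control and 151 ± 12.1 CPM in monolayer libraries (SD, n = 3 each). IFI27 is of the second kind, at 419 ± 46.6 CPM in silenced, 118 ± 41.6 CPM in ALI control and 64.1 ± 4.098 CPM in monolayer libraries. These orders rank means, and for genes whose ALI control and monolayer libraries overlap, such as MX1, DDX60 and BST2, the last 2 places do not differ beyond the spread. The same limit holds for first place where silenced and monolayer libraries overlap, as for IFITM3, SP100, SP110 and TRIM22. Of the 44, 14 did not pass in silenced against monolayer libraries.

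The genes with and without an ISRE core were set beside these changes as a description. Of the 27 with a core 8 passed the silencing test, with a median log2 fold change of 1.97. Of the 9 with a window and no core 2 passed, HERC6 and XAF1, with a median of 1.48. Of the 15 genes with 2 or more cores in 1 window 7 passed. SAMD9, with the smallest change, holds a core, and CMPK2, at 2.56, holds none in its windows.

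The rest of the pathway was listed by role. Of 21 interferon genes found, 16 had 0 counts in all 9 libraries and 2 passed the low-count filter, the epithelial type I interferons IFNK and IFNE. IFNK (interferon kappa) was at 14.2, 5.08 and 20.5 CPM in silenced, 1.07, 0 and 0.317 CPM in ALI control and 4.32, 4.05 and 5.53 CPM in monolayer libraries. It had 401 counts over the silenced, 11 over the ALI control and 153 over the monolayer libraries. Every silenced library was above every ALI control, the change on silencing was 4.84 (adjusted p = 0.0209, SE 0.78), and that on differentiation was -3.33 (adjusted p = 0.00773, SE 0.78). On silencing IFNK was called under 16 of the 21 alternatives. It was no longer called without silenced library 1 or 3 or control library 3 (then adjusted p from 0.078 to 0.107). It was also not called with limma-voom or in a fit on only the 2 groups. The differentiation call of IFNK held under every alternative. IFNE was at 0.561, 2.54 and 1.05 CPM in silenced and 0.402, 4.67 and 1.16 CPM in ALI control libraries, with overlap, and had a log2 fold change of -0.54 (adjusted p = 0.85, SE 0.79), a value that was 0.82 without control library 2. IFNB1 had 2 counts over the silenced libraries and 1 over each other group and was not tested.

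Of 9 receptor and JAK kinase genes tested none passed on silencing by edgeR or DESeq2, and 1 had an unadjusted p under 0.05. None passed without both ALI libraries numbered 2. Among all genes tested 0.226% rose by edgeR, 1.09% by DESeq2 and 2.17% by edgeR without both ALI libraries numbered 2. In either direction 1173 of 12806 genes had an unadjusted p under 0.05. With so few calls among all genes, a short list without a call is not shown to be unchanged. Of 10 STAT and IRF factors 2 rose, IRF7 and IRF9; 5 had an unadjusted p under 0.05, and 3 were higher by DESeq2 and 3 by edgeR without both ALI libraries numbered 2. IRF9, a DNA-binding partner of STAT2, was at 91.3, 91.03 and 96.5 CPM in silenced and 49.6, 48.6 and 52.4 CPM in ALI control libraries, a log2 fold change of 0.89 (adjusted p = 0.0384, SE 0.16); silenced library 2 was level with the others. IRF9 was no longer called without any 1 silenced library, control library 1 or 3 or any 1 monolayer library (then adjusted p from 0.0515 to 0.161). IRF7, which drives interferon genes, was at 76.3, 25.1 and 47.8 CPM in silenced and 9.64, 13.1 and 16.6 CPM in ALI control libraries, a log2 fold change of 1.92 (adjusted p = 0.0479, SE 0.38). IRF7 was no longer called without silenced library 1 or 3, any 1 control library or any 1 monolayer library (then adjusted p from 0.0746 to 0.191). STAT2 was at 148, 85.1 and 111 CPM in silenced and 71.7, 45.5 and 83.1 CPM in ALI control libraries, a log2 fold change of 0.78 (adjusted p = 0.391, SE 0.30).

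None of 7 negative regulators of the pathway passed on silencing by edgeR or DESeq2, with 1 at an unadjusted p under 0.05. None was higher without both ALI libraries numbered 2. The shares of all genes tested that are given above apply here too, and a short list without a call is not shown to be unchanged. None of 7 genes of class I antigen presentation passed by edgeR, with 4 at an unadjusted p under 0.05, 1 higher by DESeq2 and 3 higher by edgeR without both ALI libraries numbered 2. None of 11 genes known for the interferon-gamma response passed by edgeR, with 2 at an unadjusted p under 0.05, 1 higher by DESeq2 and 1 by edgeR without both ALI libraries numbered 2. Of 10 genes of nucleic acid sensing IFIH1 (MDA5), a sensor of long double-stranded RNA, rose. Of the 10, 6 had an unadjusted p under 0.05, 4 were higher by DESeq2, and 6 were higher by edgeR without both ALI libraries numbered 2. IFIH1 was at 162, 81.00 and 174 CPM in silenced and 48.6, 33.8 and 48.6 CPM in ALI control libraries, a log2 fold change of 1.67 (adjusted p = 0.0323, SE 0.30), and was no longer called without silenced library 1 or 3, control library 1 or 3 or any 1 monolayer library (then adjusted p from 0.0614 to 0.144). Of 24 other interferon-stimulated genes TRIM25, a ubiquitin ligase of RNA sensing, rose, a log2 fold change of 1.19 (adjusted p = 0.0435, SE 0.23), beside IRF7, which is on both lists; none fell. Of the 24, 23 had a positive log2 fold change and 16 an unadjusted p under 0.05, 6 were higher by DESeq2, and 14 were higher by edgeR without both ALI libraries numbered 2. TRIM25 was no longer called without silenced library 1 or 3, control library 1 or 3 or any 1 monolayer library (then adjusted p from 0.0732 to 0.178).

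On differentiation genes of these lists were called in both directions, where 20.3% of all genes tested were higher and 20.2% lower. Among receptors and kinases IFNGR1 (1.87) and IFNGR2 (0.59), the chains of the interferon-gamma receptor, were higher in the ALI controls on the log2 scale, and IFNAR2 (-1.54), a chain of the type I receptor, and TYK2 (-1.45) were lower. Of the STAT and IRF factors IRF5 (1.02) was among 2 that were higher, and IRF1 (-1.51) and STAT2 (-0.99) were among 3 that were lower. Of the negative regulators 2 were higher, PTPN2 (1.51) among them, and SOCS3 (-2.78), SOCS1 (-1.88) and CISH (-1.13) were lower. Of the genes of nucleic acid sensing TLR3 (-1.94), TMEM173 (STING, -1.56) and MB21D1 (cGAS, -1.04) were lower and none was higher. Of the antigen presentation genes ERAP2 (-2.29), ERAP1 (-1.65), NLRC5 (-1.59) and PSMB10 (-0.92) were lower and none was higher. The interferon-gamma response genes gave 2 higher, GBP5 (4.41) and GBP2 (3.67), and 3 lower, CD274 (-2.48) and ICAM1 (-2.12) among them. Of the other interferon-stimulated genes 3 were higher, NT5C3 (3.02) first, and 9 lower, with APOBEC3G (-4.07), APOBEC3F (-2.54) and RNF213 (-1.97) the farthest from 0. Each gene named in these sentences had an adjusted p of at most 0.0447 in the fit of all 9 libraries. IFNGR2, IRF5, STAT2, SOCS1, CISH, TMEM173, MB21D1, NLRC5, PSMB10 and ICAM1 were no longer called without some single library (then adjusted p from 0.0503 to 0.133). Without both ALI libraries numbered 2, 24.9% of all genes tested were higher and 25.7% lower. In that fit 2 of 9 receptors and kinases were higher and 3 lower. Of 10 STAT and IRF factors 2 were higher and 3 lower, and of 7 negative regulators 2 were higher and 4 lower. Of 10 genes of nucleic acid sensing 1 was higher and 5 were lower, and all 7 antigen presentation genes were lower. Of 11 interferon-gamma response genes 2 were higher and 5 lower. Of 24 other interferon-stimulated genes 4 were higher and 13 lower.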

How the data were processed

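RNA of 9 EPC2 libraries was sequenced as stranded polyA libraries, per the labels' protocols. Per the submitters' processing notes, the build was hg19 and the tools include STAR 2.4.2a, but which step each tool served is not said. How reads were counted, and whether by strand, is not given in the sources used here. Reads of overlapping antisense genes may therefore not be separated. Each of the 9 deposited tables holds 29800 transcript rows with the authors' read counts, which are whole numbers and not normalized, and the authors' RPKM values, which are scaled for length and depth. Counts of rows with the same gene symbol and chromosome were summed to 24672 genes; 53 rows gave the 44 genes, 7 of which had several rows. RPKM was summed in the same way. Whether a read shared by several rows of a gene was counted in each is not given either. Of the rows, 511 name several genes and were kept under their joint name.

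The test of counts was edgeR's (version 4.0.16, under R 4.3.3: filterByExpr, TMM scaling, robust quasi-likelihood F-test, 1 fit of the 9 libraries, residual degrees of freedom 6), and its p-values were adjusted by Benjamini-Hochberg over all 12806 genes tested, with a threshold of 0.05. The fold changes run silenced over ALI control, ALI control over monolayer, and silenced over monolayer. Standard errors (SE) came from the F statistic. CPM uses the TMM-adjusted library size. RPKM served for levels between genes and for alternatives. The fit was also run on simulated data, but the outcome is not reported here and no conclusion is drawn from it. Depth was 7641960 to 14009746 counts a library; it limits genes of few counts such as RTP4 and IFNB1.

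The 21 alternatives were DESeq2 size factors in edgeR, the DESeq2 1.42.0 test, limma-voom (limma 3.58.1), no low-count filter, a stricter filter (5 CPM in 3 libraries), a fit on the 2 groups compared, each library left out, both ALI libraries numbered 2 left out, monolayer libraries 2 and 3 summed, the replicate number as a block, log2(RPKM + 1) and log2(RPKM + 0.1) with limma, and counts thinned to 7641960. Monolayer libraries 2 and 3 were closer to each other than any other pair of a group (chi-square per degree of freedom 1.91, against 16.8 to 160 for the others) and still differed by more than sampling noise. Libraries were matched to samples by GEO's record of each table and numbered by the labels, not by table names. The 44 genes, the other lists and the alternatives were chosen with earlier results of these data known. Values per library are given for genes that passed on silencing, for the most abundant gene and the gene of largest change in each role group, for the 3 highest and 3 lowest that passed on differentiation, and for others chosen after their values were seen. Of the other pathway genes, up to 4 a list and comparison that passed are named, with SPINK7, IFNK, IFNE, IFNB1, STAT2, IRF7 and IRF9; a few further genes of these lists are not reported here. Promoter windows came from RefSeq (GRCh38.p14), while coordinates of genes were copied from the deposited tables (hg19).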

Additional observations from a re-analysis of the deposited data

How the results depend on the processing

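Depth and replicate number limit these results: 3 libraries a group, 6 residual degrees of freedom, and silenced library 2 apart from its companions. No gene of the 44 changed direction on silencing under those of the 21 alternatives in which it was tested (18 for RTP4, 21 for the others), and none was called lower. The number called higher was 10 as reported and 38 with DESeq2, 20 with no low-count filter, 2 with only the 2 groups, 40 without both ALI libraries numbered 2, 5 with monolayer libraries 2 and 3 summed, and between 2 and 36 without 1 library; the cause was not tested. BST2 and IFI6 were called under all 21, IFI27 under 17, IFITM1 and DDX60 under 16, IFITM3 under 14, IFIT5 and XAF1 under 12, PARP14 under 11 and HERC6 under 7. Of the pathway genes outside the 44, IFNK was called higher on silencing under 16, IFIH1 under 12, TRIM25 under 11 and IRF7 and IRF9 under 9 each. The median over the 44 was 1.73 to 2.30 without 1 library.

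Replicate numbers did not pair all the libraries. Deviations of same-numbered silenced and ALI control libraries correlated at 0.53, 0.58 and -0.05 across genes. Not every library correlated best with its own number, though those numbered 2 did. The highest value, 0.69, joined libraries numbered 1 and 3, and the converse pair had 0.19. Whether the libraries were paired under another numbering was not tested. With the replicate number as a block 24 genes were called higher on silencing.

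On differentiation the number higher was 8 as reported, 5 with log2(RPKM + 1) and 5 to 10 without 1 library. The number lower was 7 as reported, 15 without both ALI libraries numbered 2, 4 with monolayer libraries 2 and 3 summed and 4 to 12 without 1 library. The median was -0.46 to -0.15 without 1 library. Against the monolayers the silenced count was 30 as reported 21 to 37 without 1 library and 41 without both ALI libraries numbered 2, none was lower in any of those fits, and the median was 1.61 to 2.20.

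Some log2 fold changes turned sign, and none of those values was called. The next values are of differentiation. Without both ALI libraries numbered 2, OAS2 was 0.061 and PARP9 0.10. ISG20 was -0.033 with log2(RPKM + 1) and -0.021 with log2(RPKM + 0.1). DDX60 was -0.0092 with limma-voom, -0.012 with the stricter filter, -0.039 with monolayer libraries 2 and 3 summed, -0.029 with the replicate block, -0.16 with log2(RPKM + 1) and -0.18 with log2(RPKM + 0.1). Without 1 library, log2 fold changes ran from -0.29 to 0.27 for IFIT2, -0.54 to 0.043 for IFIT3, -0.44 to 0.060 for OAS2, -0.30 to 0.34 for ISG20, -0.74 to 0.092 for IFITM2, -0.34 to 0.11 for PARP9, -0.079 to 0.14 for DDX60, -0.41 to 0.061 for IFI35 and -1.04 to 0.52 for IFI44L. Against the monolayers SP100 ran from -0.0063 to 0.76 without 1 library, and IFNE on silencing from -1.38 to 0.82.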
